A study of Mus musculus with 7 samples.

Results

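Signals of 14 probe sets that name only Kdr, Flt1, Flt4, Tek, Tie1, Vegfa, Vegfb, Vegfc, Angpt1 or Angpt2 were read on 7 Affymetrix arrays of mouse fetal liver cells. They were chosen by gene symbol from the probe annotation, out of 20380 probe sets paired with 1 gene and 22690 in all, and stand for 10 of 12393 genes. Each of the 10 genes had at least 1 probe set: Flt1 had 3, Flt4 and Vegfa had 2 each, and the others had 1. Total RNA came from liver endothelial progenitors labelled LEP, either sorted as Sca1+ve (n = 2) or Sca1-ve (n = 3) or left unsorted (n = 1; Sca1 is a surface antigen of many progenitor cells), and from a feeder cell layer of fetal liver (n = 1). Strain, fetal age and the number of pooled animals are not given in the sources used here, and nothing says that replicates came from separate cultures, so p-values measure only the spread between these samples. The feeder array stands in a second value table under another array platform, so values set against it were described and not tested.

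VEGF ligands bind receptor tyrosine kinases on endothelial cells and drive the growth and permeability of vessels. Vegfa binds the products of Kdr and Flt1, Vegfb binds that of Flt1, and Vegfc binds that of Flt4, which is best known for lymphatic vessels. Angiopoietins act on the Tek receptor, where Angpt1 is an activating ligand and Angpt2 a context-dependent one, and Tie1 is a related receptor that modulates Tek signalling. In fetal liver the sinusoidal endothelium is a known site of Kdr and Flt4 expression.

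The 2 probe sets that differed between sets of arrays, 1 of the 2 of Vegfa and that of Vegfb, belong to ligands, so the sequences upstream of the 3 VEGF ligand genes are shown. The promoter table held an entry for 8 of the 10 genes. Each is the 250 bases before the annotated start, 5′ to 3′ on the gene's own strand, from RefSeq on GRCm38.p6. The Vegfa window is chr17:46032378-46032627 (minus strand), the Vegfb window chr19:6987652-6987901 (minus strand) and the Vegfc window chr8:54077282-54077531 (plus strand). Capitals mark the GC box GGGCGG and the hypoxia response core, ACGTG or GCGTG, on either strand.
Vegfa: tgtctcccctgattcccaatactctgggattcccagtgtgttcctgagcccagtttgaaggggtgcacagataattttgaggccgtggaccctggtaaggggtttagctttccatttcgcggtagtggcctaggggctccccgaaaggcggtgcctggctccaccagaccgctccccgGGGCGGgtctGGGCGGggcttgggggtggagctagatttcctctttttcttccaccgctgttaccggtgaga
Vegfb: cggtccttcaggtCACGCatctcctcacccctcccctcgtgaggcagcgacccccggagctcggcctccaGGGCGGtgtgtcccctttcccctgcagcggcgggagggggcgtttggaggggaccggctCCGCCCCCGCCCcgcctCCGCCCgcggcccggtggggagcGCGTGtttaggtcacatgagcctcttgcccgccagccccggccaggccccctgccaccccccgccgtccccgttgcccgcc
Vegfc: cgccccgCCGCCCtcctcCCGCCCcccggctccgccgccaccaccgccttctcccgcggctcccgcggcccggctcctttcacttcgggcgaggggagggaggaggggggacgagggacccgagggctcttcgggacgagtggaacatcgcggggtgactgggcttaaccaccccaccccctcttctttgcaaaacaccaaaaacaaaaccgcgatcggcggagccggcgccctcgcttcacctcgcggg
The Vegfb window held 2 hypoxia response cores and 4 GC boxes, and the windows of Vegfa and Vegfc held 0 cores and 2 GC boxes each. Of 32851 such windows in the table, 38.6% held at least 1 core and 32.7% at least 1 GC box. The ACGTG core also lies within the CACGTG element of other factors. Guanine and cytosine made up 59.2% of the Vegfa window, 76.4% of the Vegfb window and 71.6% of the Vegfc window, against a median of 52.4% over all windows. A match to these letters is a description and shows no binding. The lack of a core in a window says nothing of sequence outside it, which was not searched.

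Signals are on a linear scale with each array's trimmed mean at 500. An array's background was taken as the highest of its bacterial control probe sets for transcripts not made by mouse cells, and this value was 55.2 and 82.0 in Sca1+, 170, 88.2 and 50.8 in Sca1-, 170 in unsorted cells and 60.8 in the feeder layer. Whether bacterial transcripts were spiked in is not stated in the sources used here; if they were, the controls overstate the background. The sorted arrays fall into a first set (replicate 1 of each fraction) and a later set (Sca1+ replicate 2 and Sca1- replicates 2 and 3), a split inferred from the sample numbers in the titles and from the dye and software that the labels give for the later arrays alone. Actb signal at the 3′ end over that at the 5′ end, a sign of RNA quality, was 6.83 and 13.5 on the first sorted arrays, 1.87 to 2.37 on the later ones, 1.01 in unsorted cells and 1.03 in the feeder layer. Of 21 endothelial markers measured, 11 and 18 exceeded the background in Sca1+, 5, 11 and 13 in Sca1-, 12 in unsorted cells and 14 in the feeder layer. Some of these, such as Fli1, Ets1, Tal1 and Cd34, are also expressed by blood cells. All 9 macrophage markers exceeded it on each of the 7 arrays. The defining endothelial marker Cdh5, which encodes VE-cadherin, was above background on Sca1+ replicate 2, the unsorted array and the feeder array, and below it on the other 4. Pecam1, also a defining marker, was above background on Sca1+ replicate 2, Sca1- replicate 2 and the feeder array. It was below background on the rest, among them the unsorted array (117 against 170). In such bulk RNA, fewer endothelial cells and less RNA per cell cannot be told apart.

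Many of these transcripts read near background. The number of member probe sets above the highest background control was 5 and 7 of 14 in Sca1+, 1, 6 and 9 in Sca1-, 4 in unsorted cells and 10 in the feeder layer. On the same arrays 68.5%, 65.4%, 45.7%, 62.0%, 71.8%, 60.1% and 72.3% of all probe sets paired with 1 gene were above it, in that order. The share of member probe sets was lower than the share of all probe sets on each of the 7 arrays. None of the 14 exceeded background on all 7 arrays, which 38.6% of all probe sets did, and 3 did so on no array, against 15.2% of all.

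**Figure D1:**
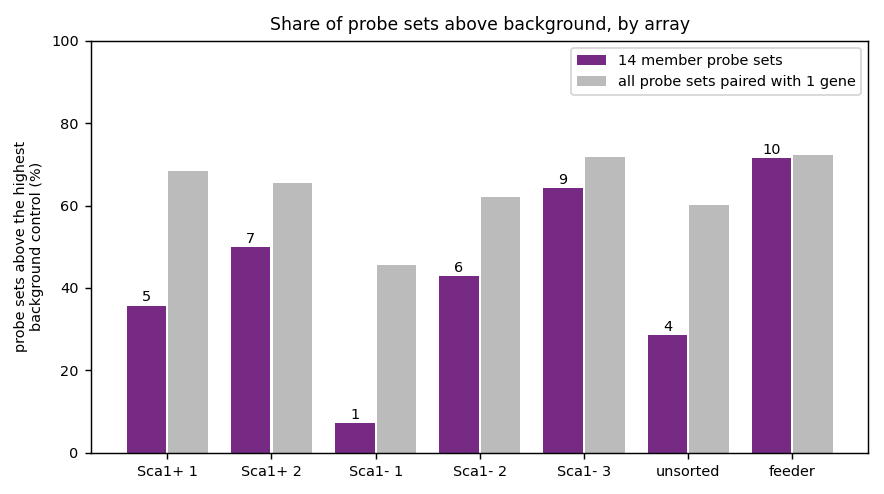
Bars give the percentage of probe sets with a signal above the highest background control of that array, for the 14 member probe sets (purple, number printed above) and all 20380 probe sets paired with 1 gene (grey), on each of 7 arrays. The purple bar is the shorter of the pair on every array, from 1 of 14 on Sca1- replicate 1 to 10 of 14 on the feeder array, where the bars are nearly equal.

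Kdr, which encodes the main signalling receptor for Vegfa, was read by 1 probe set (1449379_at; the gene lies on chromosome 5, 75932827 to 75979072, GRCm38.p6). Its signal was 191 and 432 in Sca1+, 141, 254 and 315 in Sca1-, 418 in unsorted cells and 255 in the feeder layer. It was above background on all arrays but Sca1- replicate 1, and the fractions overlapped. The lowest signals were those of the first sorted arrays.

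Flt1 encodes a receptor that binds Vegfa with high affinity and also occurs in a soluble form. Its probe set 1419300_at gave 10.8 and 46.4 in Sca1+, 12.4, 72.0 and 19.6 in Sca1-, 20.6 in unsorted cells and 61.8 in the feeder layer, and only the last exceeded background. Probe set 1451756_at gave 14.8 and 80.2, then 19.2, 32.6 and 33.8, then 98.4 and 31.4 in the same order, and was below background on every array. Probe set 1454037_a_at gave 6.0 and 35.2, then 15.0, 47.2 and 80.4, then 121 and 97.8, and was above background on Sca1- replicate 3 and the feeder array. The highest signal was on Sca1- replicate 2 for 1419300_at and on the unsorted array for the other 2, below background in each case.

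Flt4 encodes the receptor for Vegfc. Probe set 1421442_at gave 53.8 and 146 in Sca1+, 203, 66.8 and 88.6 in Sca1-, 87.2 in unsorted cells and 97.0 in the feeder layer. Sca1- replicate 1 was the highest, and this was the only member probe set above background on that array. Probe set 1444052_at gave 83.6 and 160, then 136, 138 and 74.4, then 103 and 177, with its highest signal on the feeder array. The 2 probe sets thus ordered the arrays differently, and each had fractions that overlapped.

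The Tie receptors were not read above background on most arrays. Tek, the angiopoietin receptor, gave 18.2 and 52.6 in Sca1+, 11.4, 10.8 and 52.6 in Sca1-, 15.0 in unsorted cells and 3.60 in the feeder layer. It exceeded background on Sca1- replicate 3 alone, at 52.6 against 50.8. Tie1 gave 36.6 and 6.8, then 5.60, 22.4 and 27.2, then 36.6 and 5.40, and lay below background on each of the 7 arrays.

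Vegfa, the central ligand of vessel growth, was read by 2 probe sets (the gene lies on chromosome 17, 46016993 to 46032377). Probe set 1420909_at gave 195 and 844 in Sca1+, 56.8, 408 and 576 in Sca1-, 579 in unsorted cells and 642 in the feeder layer. Probe set 1451959_a_at gave 113 and 283, then 120, 268 and 195, then 639 and 520. Both were above background on all arrays but Sca1- replicate 1, and both were lowest on the first sorted arrays. They differed in rank: 1420909_at was highest on Sca1+ replicate 2, and 1451959_a_at on the unsorted array.

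Vegfb, a ligand of Flt1 linked to cell survival and metabolism, was read by 1 probe set (1451803_a_at; chromosome 19, 6982472 to 6987651). Its signal was 22.8 and 232 in Sca1+, 41.0, 161 and 179 in Sca1-, 487 in unsorted cells and 664 in the feeder layer. It lay below background on both first sorted arrays and above it on the other 5. Vegfc, the lymphangiogenic ligand, gave 26.2 and 37.8, then 3.20, 20.8 and 7.60, then 39.8 and 77.4. It was above background on the feeder array alone, where the control stood at 60.8.

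Angpt1, the activating ligand of Tek, gave 7.80 and 4.4 in Sca1+, 5.60, 5.0 and 4.80 in Sca1-, 47.2 in unsorted cells and 5.60 in the feeder layer. The unsorted value stood above the other 6, but all 7 were below background. Angpt2, released by activated endothelium and made by other cells as well, gave 195 and 127, then 137, 95 and 78.8, then 162 and 214. It was above background on both Sca1+ arrays, Sca1- replicates 2 and 3 and the feeder array. Both first sorted arrays read above the 3 later ones, although the signal of 137 on Sca1- replicate 1 was below that array's background of 170.

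**Figure D2:**
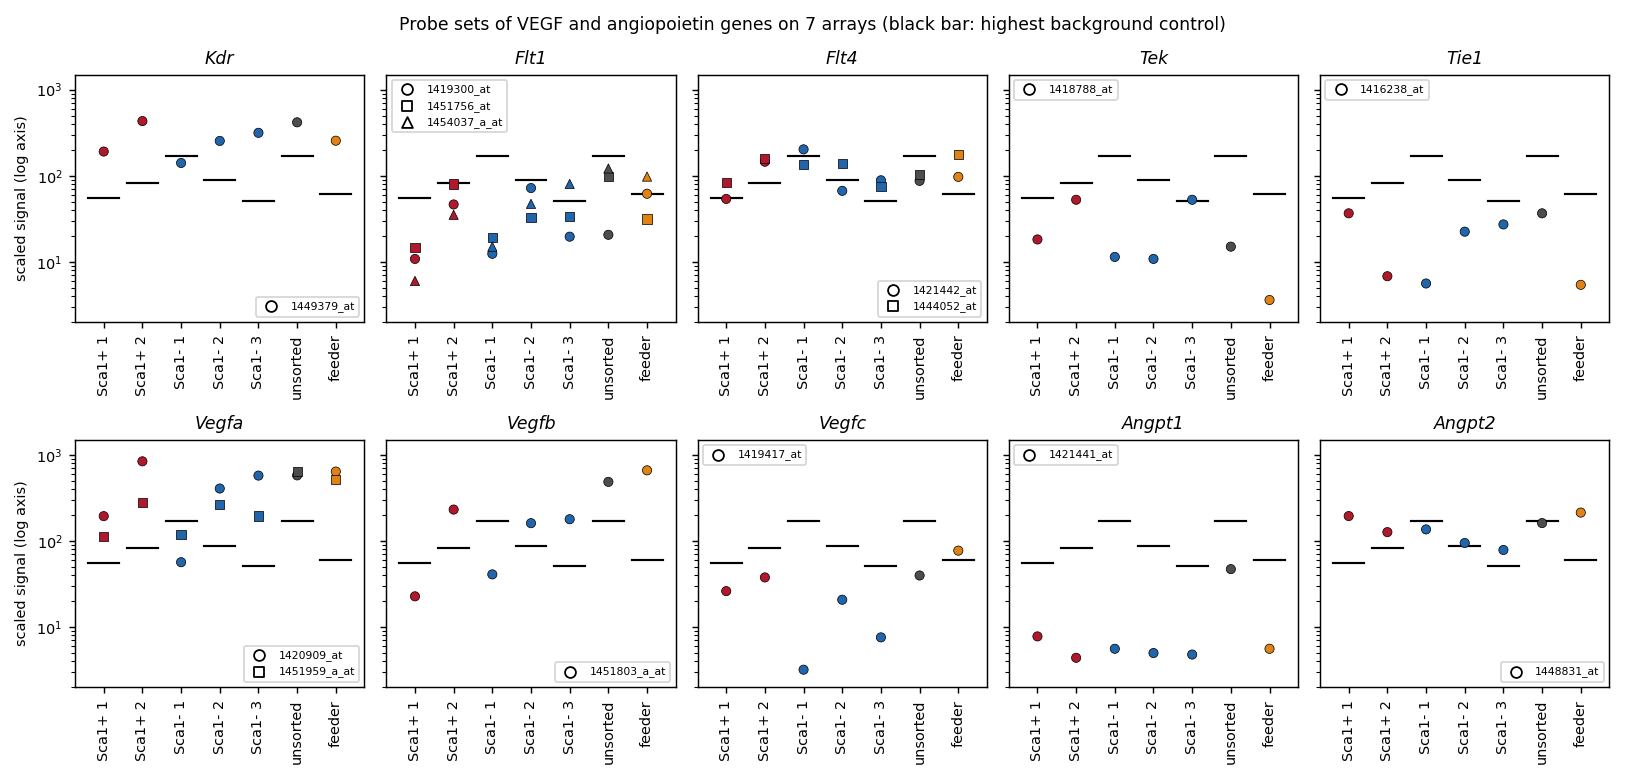
Each panel shows 1 gene, with the scaled signal (log axis) of its probe sets on the 7 arrays; marker shapes are probe sets, colours are groups (red Sca1+, blue Sca1-, grey unsorted, orange feeder) and black bars are each array's highest background control. Kdr and both Vegfa probe sets lie above the bar on 6 arrays, whereas Tie1 and Angpt1 lie below it on all 7.

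Setting Sca1+ against Sca1- cells tests whether these transcripts differ between the fractions. Of 14 member probe sets, 7 passed the filter on dim signals (2 or more sorted arrays with a signal over 100, which 65.0% of all probe sets paired with 1 gene passed) and entered the test: those of Kdr, Flt4, Vegfa, Vegfb and Angpt2. With limma and group as the only term, 0 of the 7 passed at an adjusted p of 0.05, and neither did any of the 13251 probe sets tested (0%), of which 398 had an unadjusted p under 0.05. In log2 signal, floored at 64, Kdr stood at 8.17 ± 0.83 (SD, n = 2) in Sca1+ and 7.81 ± 0.60 (SD, n = 3) in Sca1-. Vegfa 1420909_at stood at 8.66 ± 1.5 and 7.95 ± 1.70, Vegfb at 6.93 ± 1.31 and 6.94 ± 0.82, and Angpt2 at 7.30 ± 0.44 and 6.65 ± 0.40, with the same numbers of arrays. The difference was 0.36 ± 0.57 (SE) for Kdr, 0.72 ± 1.06 for Vegfa 1420909_at, -0.01 ± 0.73 for Vegfb and 0.64 ± 0.47 for Angpt2. The differences of Kdr, Vegfa and Vegfb were smaller than the SD within either fraction, and that of Angpt2 was larger than both SDs without passing the test. The summed signal of 9 granulocyte markers was lower in Sca1+ (134167 and 8695) than in Sca1- (190832 to 556132). On each sorted array 8 or 9 of them were above background. The gap between the 2 Sca1+ arrays was wider than that between Sca1+ replicate 1 and the lowest Sca1- array. Within each fraction the sum was highest on replicate 1. Of the 9, Ngp overlapped between the fractions (34150 on Sca1+ replicate 1, 31233 on Sca1- replicate 3). The part of granulocyte markers in the differences of the member probe sets was not tested.

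No member probe set had both Sca1+ arrays above all 3 Sca1- arrays or below them, which 11.3% and 8.14% of all probe sets tested had. With the set as a block, limma called 87 probe sets (0.657%), 0 higher and 87 lower in Sca1+, and 0 of the 7. In that fit Vegfa 1420909_at had the smallest p of the 7, with a difference of 1.15 ± 0.35 (unadjusted p = 0.0147, adjusted p = 0.259). Kdr and Angpt2 each had a difference of 0.54, with SE 0.31 and 0.35 and adjusted p of 0.434 and 0.483. Within the first set, with 1 array a fraction, the difference was 1.61 for Vegfa 1420909_at, 0.44 for Kdr and 0.52 for Angpt2, and within the later set it was 0.80, 0.61 and 0.55. On Sca1- replicate 1, the Sca1- array of the first set, all 3 were below background and Vegfa 1420909_at was at the floor, so the differences within that set are not measured on both sides. Within the later set, where each of the 3 was above background on all 3 arrays, they were higher in Sca1+, with no call. Flt4 1421442_at went both ways, at -1.66 in the first set and 0.92 in the later one, as did Flt4 1444052_at at -0.70 and 0.66. The 95% interval of the difference in the blocked fit was 0.31 to 1.98 for Vegfa 1420909_at, -0.20 to 1.28 for Kdr, -0.57 to 1.08 for Vegfb and -0.30 to 1.38 for Angpt2. The first of these lies above 0, but its adjusted p did not pass.

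**Figure D3:**
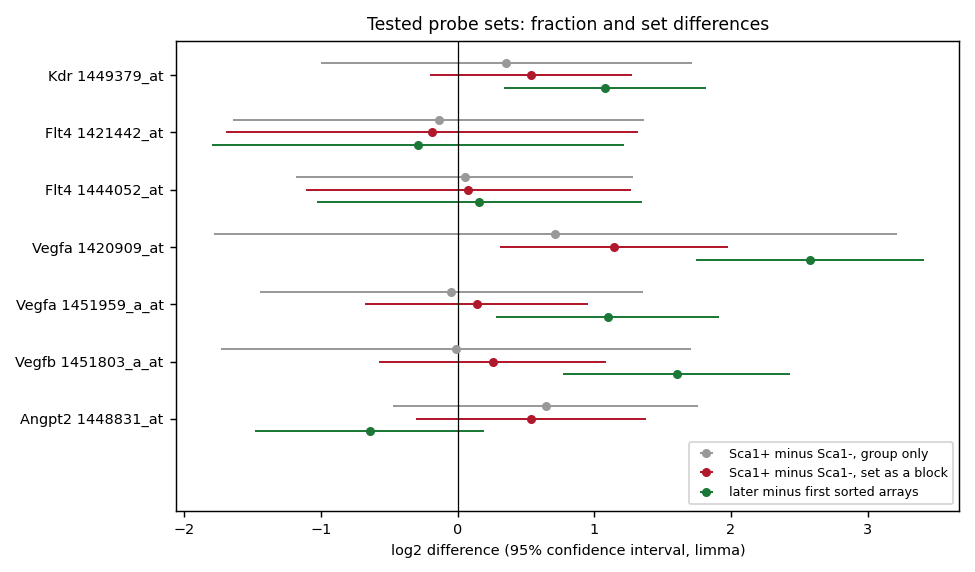
Points are log2 differences with 95% confidence intervals from limma for the 7 tested probe sets: Sca1+ minus Sca1- with group only (grey), the same with the set as a block (red), and later minus first sorted arrays (green). The green interval lies wholly above 0 for Kdr, both Vegfa probe sets and Vegfb, and every grey interval spans 0. Of the red intervals, that of Vegfa 1420909_at alone lies above 0.

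Between the sets, 2 member probe sets passed the test. Vegfa 1420909_at was higher on the later sorted arrays by 2.58 ± 0.35 (SE) on the log2 scale with the floor of 64 (limma with group and set as terms, adjusted p = 0.00662). Of the 2 first arrays, Sca1+ replicate 1 alone measured it above background, and Sca1- replicate 1 was at the floor, so the size of this difference depends on the floor. Vegfb was also higher, by 1.60 ± 0.34 with the floor of 64 (adjusted p = 0.0247). Since it lay below background on both first arrays, the difference is given as at least 1.95-fold, the later mean against the highest background control of each first array. This bound pools the fractions. In Sca1+ the later signal of 232 stood against a control of 55.2, but in Sca1- 161 and 179 stood against 170, where no difference is bounded. Both first values were at the floor, so the fit had no measured spread of Vegfb between them. Kdr differed by 1.08 ± 0.31 (adjusted p = 0.0533) and Vegfa 1451959_a_at by 1.1 ± 0.34 (adjusted p = 0.0648), and neither passed. Angpt2 stood at -0.64 ± 0.35 (adjusted p = 0.226), and the Flt4 probe sets at -0.29 ± 0.63 and 0.16 ± 0.49.

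These counts stand against a large background: 2666 of 13251 probe sets (20.1%) passed in this comparison, 1756 higher (13.3%) and 910 lower (6.87%) on the later arrays, against 2 of the 7, both higher. All 3 later arrays exceeded both first arrays for Kdr, both Vegfa probe sets and Vegfb, as for 28.4% of all probe sets tested, and lay below both for Angpt2, as for 18.4%. Quantile normalization moved the split of calls to 1556 higher and 1291 lower and the median difference of all probe sets from 0.15 to -0.03, and median scaling moved them to 979 and 1014 and to -0.06. Vegfa 1420909_at and Vegfb remained past the threshold under both scalings, each tested against a difference of 0 and not against that median. The call of both was lost with a higher floor (adjusted p = 0.0538 and 0.119). Both calls were also lost without Sca1- replicate 1, where the differences were 2.12 and 1.86. That of Vegfb was lost without Sca1+ replicate 1, with a difference of 1.41. Each fit that left out 1 sorted array had 1 residual degree of freedom, also those that kept the calls.

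Some markers of other cell types differed between the sets. The summed signal of 8 mesenchymal markers was 1863 and 3075 on the first sorted arrays, 28690 to 77071 on the later ones, 53252 in unsorted cells and 56689 in the feeder layer, and Col1a1, a defining marker, read 79.4 and 32.6 on the first sorted arrays and 8319 to 20565 on the later ones. The summed signal of 7 hepatoblast markers was 442 and 581 on the first sorted arrays and 1302 to 2643 on the later ones. On the first sorted arrays 5 and 1 of the 7 were above background. Afp, Dlk1, Krt8 and Krt18 were higher on all later arrays. Alb and Ttr overlapped between the sets, and Apoa1 was lower on the later arrays, below background on every sorted array. That of the 21 endothelial markers did not separate the sets, at 1987 and 3034 on the first sorted arrays and 2963 to 4990 on the later ones. It was 4524 in unsorted cells and 3088 in the feeder layer. This sum includes signals below background: 11 and 5 of the 21 were above it on the first sorted arrays. Single markers went both ways, as 2 picked after their values were seen show. Cldn5 read 10.4 and 17.4 on the first sorted arrays and 305, 146 and 108 on the later ones, and Icam2 428 and 588 against 302, 288 and 230. No endothelial marker was listed at 0, and the lowest value was 3.20, for Sox17 on Sca1- replicate 2, named here after its values were seen. The summed signal of the 9 macrophage markers was 160178 and 167856 on the first sorted arrays and 84877 to 95448 on the later ones. Ptprc, Csf1r, Lyz2 and Mpeg1 were higher on both first sorted arrays, whereas Adgre1, Cd68, Fcgr1, Cd14 and Itgam overlapped between the sets. Adgre1, a defining marker, read 16333 and 1812 on the first sorted arrays and 5550, 3565 and 3513 on the later ones. The part of the mesenchymal, hepatoblast and macrophage markers, and of the 3′ to 5′ ratio of Actb, in the difference of Vegfa and Vegfb was not tested.

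**Figure D4:**
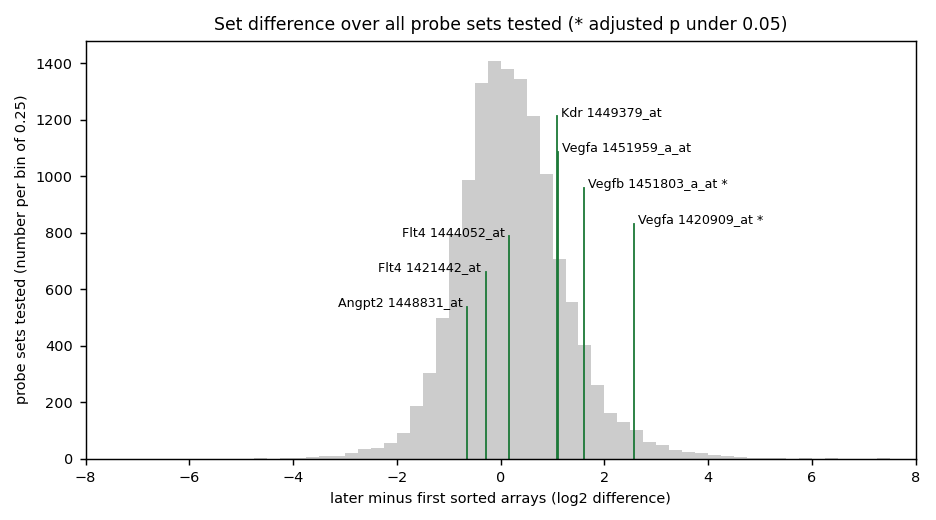
Grey bars count all 13251 tested probe sets by their log2 difference between later and first sorted arrays in bins of 0.25, and green lines place the 7 member probe sets, with a star where the adjusted p is under 0.05. Vegfa 1420909_at, at 2.58, and Vegfb, at 1.60, carry the star, and Angpt2 lies on the lower side at -0.64.

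The unsorted progenitors and the feeder layer had the highest Vegfb signals. On the unsorted array, which has no replicate, Vegfb was at least 2-fold above the highest sorted array (487 against 232, a log2 difference of 1.07), and so was Vegfa 1451959_a_at (639 against 283, 1.18). Of all probe sets, 7.11% were as far above the sorted arrays and 1.42% as far below, where no member lay. Vegfa 1420909_at did not share this, since its unsorted signal of 579 lay below the 844 of Sca1+ replicate 2. Comparing with only the later sorted arrays could not change the calls of Vegfb and Vegfa 1451959_a_at. The highest sorted signal of both was on Sca1+ replicate 2, a later array. Their place depended on the scaling: the unsorted array had the highest deposited median signal, 118 against 60.9 to 81.5 on the sorted arrays. Quantile normalization left Vegfa 1451959_a_at alone past 2-fold and median scaling neither, while the split over all probe sets went from 1450 higher and 290 lower to 535 and 540 and to 279 and 1036.

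On the feeder array Vegfb was 1.52 above the highest sorted array on the log2 scale (664 against 232), and it was the only member probe set at least 2-fold above all 5, where 3.79% of all probe sets were; 0 lay as far below, against 1.04% of all. With the lower floor (16) Vegfc was also past 2-fold. Vegfb itself stayed past it with both other scalings, both floors and the pseudocount. Leaving out a sorted array could not undo this, since it cannot raise the highest sorted signal. Between the feeder and unsorted arrays, 1 array each from tables normalized separately, 0 of 14 member probe sets differed by 2-fold or more, where 3.68% of all were higher and 11.2% lower on the feeder array. The log2 difference of feeder minus unsorted was 0.45 for Vegfb, 0.15 and -0.30 for the Vegfa probe sets, -0.71 for Kdr and 0.40 for Angpt2. The split over all probe sets was 751 higher and 2282 lower, and moved to 1216 and 1095 with quantile normalization and to 1514 and 959 with median scaling.

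Other genes of these pathways were taken from 4 lists, using each gene's probe set of highest mean. The shares and medians set beside the lists are over all probe sets tested, not over 1 probe set a gene. In the fit with 1 probe set a gene, 1012 of 8591 were higher and 641 lower on the later arrays, with a median of 0.10. No gene of any list passed between the fractions, with or without the set as a block, where 0% and 0.657% of all probe sets tested did. Of 15 measured ligands, co-receptors and ligand-processing genes, 8 were tested, and between later and first sorted arrays 4 were higher and 0 lower, where 13.3% and 6.87% of all probe sets were, with a median of 1.32 against 0.15 over all probe sets tested. Nrp2, which encodes a co-receptor of Vegfc and Vegfa, had signals of 289 and 269 on the first arrays and 1049, 730 and 840 on the later ones, a difference of 1.68 ± 0.26 (adjusted p = 0.00953). Ptprj, a phosphatase that acts on Kdr, differed by 3.78 ± 0.43, and Adamts1, a protease that can bind Vegfa, by 1.79 ± 0.31. Both were below background on Sca1- replicate 1 (71.8 and 94.3 against 170), so the sizes of these 2 differences are not measured on that array. Nrp1, the co-receptor of Kdr, had signals of 2167 and 3127 in Sca1+ and 287, 1950 and 2181 in Sca1-, with a fraction difference of 1.28 ± 0.89 and a later difference of 1.85 ± 0.50 (adjusted p = 0.0468), and Angptl4 and Sema3a had fraction differences of 1.21 ± 0.52 and 0.53 ± 0.41. Nrp1 and Nrp2 were above background on all 7 arrays, unlike each of the 14 member probe sets.

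Of 26 tested genes of receptor-proximal signalling, 3 were higher and 6 lower on the later arrays, where 13.3% and 6.87% of all probe sets were, with a median of 0.30 against 0.15 over all. Hspb1, a heat shock protein phosphorylated downstream of Kdr, was higher by 2.61 ± 0.29, while Mapk14 (-2.01 ± 0.21) and Prkcb (-1.71 ± 0.25), kinases also abundant in leukocytes, were lower. On Sca1- replicate 1 Hspb1 was below background (93.3 against 170). Between the fractions the smallest p in this list belonged to Bmx (-1.58 ± 0.66), Gab1 (1.23 ± 0.61) and Pxn (-1.16 ± 0.66), with no call. Of 15 tested transcriptional targets and feedback genes, 5 were higher and 0 lower on the later arrays, where 13.3% and 6.87% of all probe sets were, with a median of 0.30 against 0.15 over all. They included Nr4a1 (3.19 ± 0.24), an early response gene, Spry2 (2.34 ± 0.31), an inhibitor of receptor kinase signalling, and the shear-responsive factor Klf2 (1.24 ± 0.24). Nr4a1 and Spry2 were also below background on Sca1- replicate 1 (156 and 111). The fraction difference was -1.36 ± 0.88 for Cxcr4, 0.83 ± 0.47 for Rcan1 and 1.18 ± 0.70 for Spred1.

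The last list holds genes that control Vegfa under low oxygen or respond with it. Of 16 tested, 2 were higher and 2 lower on the later arrays, near the shares of all probe sets (13.3% and 6.87%), with a median of -0.11 against 0.15 over all. Ddit4 (1.52 ± 0.36) and P4ha1 were higher, and Bnip3 (-1.65 ± 0.22) and Egln1 (-1.21 ± 0.29), which encodes the oxygen sensor that marks HIF for decay, were lower. Bnip3 had signals of 10386 and 10496 on the first arrays and 2796, 3760 and 3864 on the later ones, the opposite order to Vegfa. The fraction differences of smallest p were those of Pdk1 (0.85 ± 0.57), Car9 (1.04 ± 0.61) and P4ha1 (0.87 ± 0.63), none of which passed.

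For 5 of the 10 genes the probe set of highest mean was above background on at least 3 of the 6 arrays of the larger table, and the 2 genes of nearest pattern were found among 8590 others by the root mean square difference of centred log2 signals over these 6 arrays. The nearest to Kdr were Loxl3 (0.093) and Snx16 (0.11), and to Vegfa Cpeb4 (0.19) and C1qa (0.19). The nearest to Vegfb were Smim10l1 (0.090) and St3gal4 (0.16), to Angpt2 Capn10 (0.11) and Gins4 (0.11), and to Flt4 Hexdc (0.13) and Pcnx4 (0.14). C1qa, which encodes a complement chain made by macrophages, had signals of 2310 and 8435 in Sca1+, 743, 5828 and 5635 in Sca1- and 7539 on the unsorted array. These values are a description over 6 arrays that share 2 sets.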

How the data were processed

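The authors deposited a linear signal intensity for every probe set, scaled so that the 2% trimmed mean of an array was about 250. Per the submitters' processing notes, GCOS made those of the 3 later arrays; no source used here names the software of the other 4. Arrays were brought to a trimmed mean of 500, floored at 64 and put on the log2 scale. Of 22690 probe sets, 64 controls, 691 with several genes and 1555 with none were left out, and 27 controls (Dap, Lys, Phe, Thr and Trp) gave the background. The number of arrays limits the precision.

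Fractions were compared with limma 3.58.1 under R 4.3.3 (linear fit, moderated variances with a trend, all 6 arrays of the larger table, Benjamini-Hochberg over 13251 probe sets), with 3 residual degrees of freedom, or 2 with the set as a block. No block entered the main design. Intervals and SE are limma's moderated ones. Named genes were all member probe sets, in each pathway list up to 3 genes of smallest p in each comparison, and the 2 genes of nearest pattern. Lists and members were chosen with earlier results of these data known. The fits were tested on simulated data of 13251 probe sets. Of 50 changed 8-fold, group only recovered 11, the blocked fit 15 and the set comparison 23, and of 50 changed 2-fold each recovered 0. No 2 arrays held identical values. Alternatives were other scalings, floors, filters, probe set choices and blocks, and leaving out each sorted array.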

Additional observations from a re-analysis of the deposited data

How the results depend on the processing

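Between the fractions, the count of 0 probe sets past the threshold stayed at 0 under each alternative but 3: it was 2 with no filter, 87 with the deposit set as a block and 190 with the replicate block. The samples share only a number, as there are 2 pairs, and the replicate block called 0 of the 7 member probe sets. The direction of the small fraction differences was not stable. Vegfb (-0.01) went to 0.26 with the deposit set as a block, 0.26 with the replicate block, 0.16 with the higher floor and 0.45 within the later set. Vegfa 1451959_a_at (-0.04) went to 0.14 with the set as a block, 0.014 with the higher floor, 0.0030 with median scaling, 0.048 with quantile normalization and 0.31 within the later set. Flt4 1444052_at (0.05) went to -0.24 with the replicate block and -0.70 within the first set, and Flt4 1421442_at (-0.14) to 0.92 within the later set. Without each sorted array in turn the range was -0.34 to 1.77 for Vegfa 1420909_at, -0.71 to 0.62 for 1451959_a_at, -0.73 to 0.45 for Flt4 1421442_at, -0.42 to 0.52 for 1444052_at, -0.23 to 0.94 for Kdr and -0.94 to 0.92 for Vegfb; Angpt2 kept its direction. Sca1+ replicate 2 and Sca1- replicate 1 turned Vegfa 1420909_at (-0.34 and -0.26), and Sca1+ replicate 2 turned Kdr (-0.23).

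Between later and first sorted arrays, the 2666 calls became 624 with the higher floor, 19 with no filter and 1653 with 1 probe set a gene, where fewer were tested, and 599 to 4089 without each array; the member count of 2 became 0 with the higher floor and with no filter, and 0 to 2 without each array. It was 3 with a pseudocount of 32, where Kdr passed (adjusted p = 0.0493). With a filter at a higher signal it stayed 2, but these were Vegfa 1420909_at and Kdr (adjusted p = 0.0443), as Vegfb was not tested. Flt4 1444052_at (0.16) went to -0.038 with median scaling and -0.42 to 0.94 without each array, and Flt4 1421442_at (-0.29) to between -1.40 and 1.19. Beyond the sorted arrays, the unsorted count of 2 became 1 with quantile normalization or a pseudocount of 32 and 0 with median scaling. The feeder count of 1 against the sorted arrays became 2 with the lower floor (16), and the feeder count of 0 against the unsorted array became 1 with quantile normalization or median scaling, 4 with the lower floor (16) and 2 with the pseudocount. Of 98 pairs of probe set and array, 42 lay above the highest background control. Above the 95th percentile of the controls lay 50, and above the median control 80. Of the 42, 36 were left without the first sorted arrays, an alternative chosen after seeing the data, as was comparing with the later arrays alone. Apart from these settings the cause of a change was not tested.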
